A study of Rattus norvegicus with 11 samples.

Results

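The genes described here are 4 annexins (Anxa1, Anxa3, Anxa4 and Anxa5) and 4 S100 genes (S100a4, S100a6, S100a11 and S100b), 8 of the 30560 genes counted in a bulk RNA-seq study of intracerebral hemorrhage (ICH) in the rat striatum. They were picked out of the table by gene symbol, with earlier results of these data known, and all 8 were among the 15742 genes that passed the filter on low counts. The libraries came from 11 adult male Sprague-Dawley rats, each library being taken as 1 rat, and all tissue was collected at day 3. Normal rats (n = 2) received neither collagenase nor aspiration. In the common hemorrhage model (IC, n = 3), a dose of 0.2 U collagenase VII-S in 1.0 μL saline was injected into the right striatum, where the bacterial enzyme breaks vessel walls and lets blood escape. The severe model (IS, n = 3) had 0.6 U in 3.0 μL, and the aspiration group (IS-HA, n = 3) had the same injection as IS followed at 6 h by withdrawal of 150 μL of hematoma through a catheter. The hemorrhage samples were ipsilateral striatum and the Normal samples the corresponding region. No group analysed here had a needle or saline alone, so blood and the injection cannot be told apart against Normal. Dose and injected volume differ together between IS and IC and cannot be told apart, and since IS-HA rats were also anesthetized and catheterized a second time, that procedure and the removal of blood cannot be told apart against IS. The labels number the replicates and say no more about them, so the p-values measure the spread between these samples.

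Annexins are cytosolic proteins that bind acidic phospholipids of membranes when calcium rises, and they take part in membrane repair, vesicle traffic and the handling of dying cells. S100 proteins are small proteins of the EF-hand type that act mostly as dimers. On binding calcium, most of them open a surface to which target proteins attach. Several annexins are partners of S100 proteins, as in the S100a10 with Anxa2 and S100a11 with Anxa1 complexes. In the brain S100b is made mainly by astrocytes and is known as a serum marker of brain injury, whereas S100a4, S100a6 and S100a11 are known from migrating leukocytes, reactive glia and mesenchymal cells.

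Of the 8 members, S100a4, S100a6, S100a11 and Anxa5 lie on chromosome 2, Anxa1 on chromosome 1, Anxa3 on chromosome 14, Anxa4 on chromosome 4 and S100b on chromosome 20. S100a4 and S100a6 sit in the S100 gene cluster, separated by the single gene S100a5, and S100a11 lies beside S100a10 with 61 protein-coding genes between S100a6 and S100a11. The bases before the RefSeq start of 4 members (GRCr8 build, one member with a TATA box, one with a tandem GC box, one with a match to an NF-kB motif, and S100b) are shown because S100a4, S100a11 and Anxa4 rose in IS and S100b did not. Capitals mark TATAAA in S100a4, GGGCGG in S100a11, the NF-kB motif (GGG, any 2 bases, then TTTCC) in Anxa4 and CCAAT in S100b, each sequence reads 5′ to 3′ on the gene's strand, and bases covered by a longer model of the same gene are not printed.
S100a4, chr2:178388279-178388528, plus strand: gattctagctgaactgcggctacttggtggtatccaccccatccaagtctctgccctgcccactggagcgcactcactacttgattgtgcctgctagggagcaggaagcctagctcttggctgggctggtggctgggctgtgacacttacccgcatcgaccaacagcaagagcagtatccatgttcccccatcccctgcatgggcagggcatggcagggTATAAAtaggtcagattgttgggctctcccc
S100a11, chr2:181874882-181875131, plus strand: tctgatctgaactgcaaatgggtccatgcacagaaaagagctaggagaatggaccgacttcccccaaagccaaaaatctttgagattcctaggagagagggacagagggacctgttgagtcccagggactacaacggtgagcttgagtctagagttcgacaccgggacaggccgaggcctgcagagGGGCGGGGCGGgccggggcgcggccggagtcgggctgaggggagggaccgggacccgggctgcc
Anxa4, chr4:120798535-120798763, minus strand: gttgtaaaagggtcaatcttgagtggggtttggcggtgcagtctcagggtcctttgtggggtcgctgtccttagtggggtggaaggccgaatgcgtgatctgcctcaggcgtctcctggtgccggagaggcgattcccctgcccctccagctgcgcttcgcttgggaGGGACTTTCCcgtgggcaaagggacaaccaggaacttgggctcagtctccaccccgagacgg
S100b, chr20:12381160-12381331, minus strand: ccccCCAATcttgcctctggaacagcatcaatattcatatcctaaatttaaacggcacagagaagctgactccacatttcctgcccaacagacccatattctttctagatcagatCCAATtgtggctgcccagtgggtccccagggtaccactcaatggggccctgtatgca

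All 8 members matched a promoter entry, and 6 motifs were searched on both strands in the 250 bases before each start and in the same window of all 33469 RefSeq promoters. The TATAAA of S100a4 stood 31 to 26 bases before its start. Anxa1 held one at 46 to 41, inside a longer Anxa1 gene model, so that 2 of 8 members had it against 12.9% of all promoters. This form of the NF-kB motif was present in Anxa4 at 83 to 74 bases before the start and in Anxa5 at 51 to 42, 2 of 8 members against 1.3% of all promoters. The Anxa5 match (capitals) and its flanks lie inside a longer Anxa5 gene model.
Anxa5, chr2:121272728-121272757, minus strand: gggctggccaGGGCGTTTCCgttgcacgga
GGGCGG was found in 5 of 8 members (Anxa3, Anxa4, Anxa5, S100a6 and S100a11) and in 30.5% of all promoters, and CCAAT in Anxa4 and S100b (2 of 8) and in 34.0%. The GGGCGG matches of Anxa4, Anxa5 and S100a6 and the Anxa3 match at 44 to 39 also lie inside longer models of these genes. So do the CCAAT of Anxa4 and the S100b match at 38 to 34. TGANTCA (the AP-1 motif, 6.3% of promoters) and TTCNNNGAA (a STAT motif, 7.7%) were not found in these windows of the members. The 2 GGGCGG matches of S100a11 overlap by 1 base. A match describes the letters only, and no binding was measured.

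Library totals ran from 6701301 to 18817645 counts, with medians of 17933189.5 in Normal, 14761168 in IC, 10867450 in IS and 10139653 in IS-HA. The smallest library was IS-HA replicate 2, whose profile correlated with the other IS-HA rats at a mean Pearson r of 0.919, against 0.950 and 0.954 for replicates 1 and 3 and at least 0.962 in the other groups. Results that rest on that rat are given with and without it. Neuronal markers were detected in all 11 libraries: none of 10, including the dopamine receptors Drd1 and Drd2, was at 0, which by itself does not tell the brain region. Their summed TPM (a transcript level scaled to transcript length and library size) was 7535 to 7737 in Normal, 3051 to 6116 in IC, 1509 to 3903 in IS and 2279 to 4011 in IS-HA.

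Against Normal striatum, all 4 annexins and 3 of the 4 S100 members were higher in every rat with hemorrhage, by fitted folds from 2.37 for Anxa5 in IC to 141 for S100a11 in IS, and S100b was the exception. In IS against Normal 7 of 8 members passed the test and rose (adjusted p below 0.05 by edgeR's quasi-likelihood test and at least 2-fold), where 18.8% of all genes tested did. The same count was 7 of 8 in IS-HA against Normal, with 15.1% of all genes, and 6 of 8 in IC against Normal, with 10.9%, Anxa4 being the seventh gene that was above Normal there without passing. Every rat of the hemorrhage group lay above both Normal rats for 7 of 8 members in each comparison, on read counts scaled to normalized library size (CPM), where 32.4% of all genes did so in IC, 37.6% in IS and 31.7% in IS-HA. Median log2 fold changes over the 8 members were 2.99 in IC, 3.54 in IS and 3.32 in IS-HA, while those of all genes tested were 0.0033, 0.018 and 0.056. These 3 comparisons share the same 2 Normal rats. In bulk tissue, more cells of one type and more RNA per cell cannot be told apart.

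**Figure D1:**
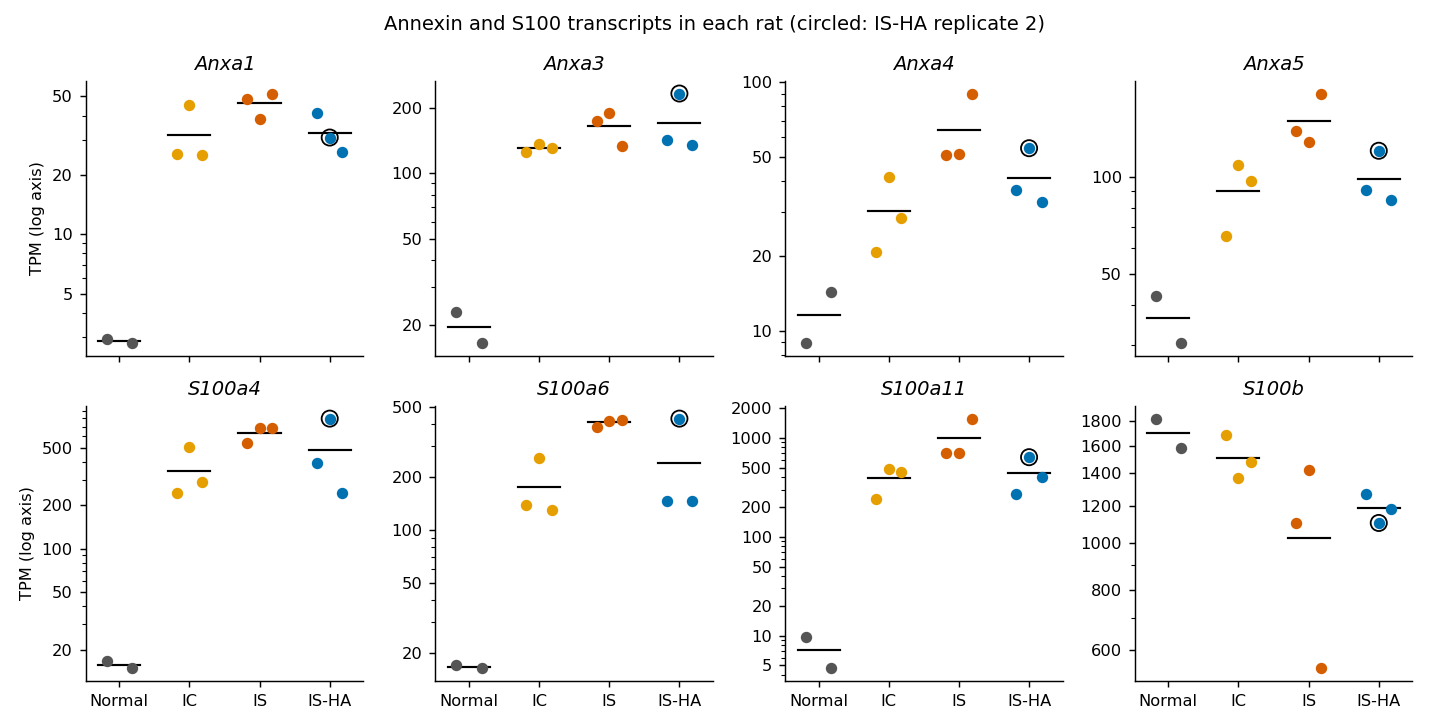
TPM of each member in each of the 11 rats by group (log axis; points are rats, bars the group mean, and the circle marks IS-HA replicate 2). The 9 rats with hemorrhage lie above both Normal rats for Anxa1, Anxa3, Anxa4, Anxa5, S100a4, S100a6 and S100a11, and S100b runs from 548 in IS replicate 4 to 1822 in Normal replicate 1.

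Anxa1 (ENSRNOG00000017469), a glucocorticoid-induced protein that limits leukocyte entry and acts through formyl peptide receptors, was at 2.96 and 2.80 TPM in the 2 Normal rats. It reached 25.6, 45.3 and 25.3 TPM in IC, 48.8, 38.7 and 51.8 TPM in IS, and 41.0, 31.0 and 26.1 TPM in IS-HA. No hemorrhage rat overlapped Normal, and the 3 hemorrhage groups overlapped in part. Its log2 fold change against Normal was 3.40 ± 0.34 (SE) in IC, 4.02 ± 0.35 in IS and 3.49 ± 0.34 in IS-HA, with edgeR adjusted p-values of 1.7e-04, 3.6e-05 and 1.0e-04. The rise in IS came to 16.2-fold (95% interval 9.47 to 27.7), the largest fold of the annexin members.

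Anxa3 (ENSRNOG00000002045), an annexin known from neutrophil granules and microglia, was the most abundant annexin member on the TPM scale in every hemorrhage group. Normal rats had 23.0 and 16.6 TPM, IC rats 126, 136 and 130 TPM, IS rats 174, 190 and 133 TPM, and IS-HA rats 143, 233 and 136 TPM. The IC values were tightly grouped (131 ± 5.18 TPM, SD, n = 3), and the single highest value of the series was IS-HA replicate 2. Against Normal the log2 fold change was 2.66 ± 0.37 in IC, 3.07 ± 0.38 in IS and 3.14 ± 0.38 in IS-HA (edgeR adjusted p = 7.8e-04, 1.7e-04 and 2.8e-04). Anxa3 made up 27.7% of the summed TPM of the 4 annexin members in Normal, on average, and 46.8%, 39.3% and 49.2% in IC, IS and IS-HA.

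Anxa4 (ENSRNOG00000018159), which is found at epithelial and vesicle membranes, had 8.88 and 14.3 TPM in Normal and 20.7, 41.5 and 28.4 TPM in IC. In IS it was at 50.8, 51.3 and 90.2 TPM, and in IS-HA at 36.7, 54.3 and 33.0 TPM. It rose in IS (log2 fold change 2.52 ± 0.46, edgeR adjusted p = 0.0015) and in IS-HA (1.88 ± 0.45, adjusted p = 0.010). In IC the difference of 1.34 ± 0.44 did not pass (edgeR adjusted p = 0.056), although all 3 IC rats were above both Normal rats. That call was sensitive to the fit: Anxa4 passed in IC under 8 of 20 alternatives, for example with adjusted p = 0.0099 when only the IC and Normal rats entered, and in IS-HA it missed with either Normal rat left out (adjusted p = 0.083 and 0.052).

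Anxa5 (ENSRNOG00000014453), the protein used as a probe for phosphatidylserine on dying cells, was the annexin member with the highest Normal level, at 42.7 and 30.4 TPM. IC rats had 65.4, 109 and 97.1 TPM, IS rats 139, 128 and 181 TPM, and IS-HA rats 90.8, 120 and 84.5 TPM. On the TPM scale each IS rat lay above each IC rat and each IS-HA rat. The log2 fold change was 1.24 ± 0.35 in IC, 2.04 ± 0.36 in IS and 1.44 ± 0.35 in IS-HA against Normal (edgeR adjusted p = 0.033, 0.0013 and 0.012), the smallest in each group of the 7 members other than S100b. The IC call was lost with IC replicate 3, IC replicate 4, Normal replicate 1 or Normal replicate 3 left out (adjusted p = 0.10, 0.095, 0.065 and 0.28), and the IS-HA call without Normal replicate 3 (adjusted p = 0.13).

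S100a4 (ENSRNOG00000011821), a regulator of non-muscle myosin and cell motility, was at 16.6 and 14.8 TPM in Normal. It stood at 243, 505 and 292 TPM in IC, 540, 689 and 685 TPM in IS, and 396, 798 and 245 TPM in IS-HA. Every IS rat exceeded every IC rat, while of the IS-HA rats replicates 1 and 3 lay within the IC range and replicate 2 above every IS rat. Log2 fold changes against Normal were 4.39 ± 0.62, 5.36 ± 0.65 and 5.00 ± 0.64 for IC, IS and IS-HA (edgeR adjusted p = 9.0e-04, 1.7e-04 and 3.9e-04). The IS difference was 41.1-fold, with a 95% interval of 15.2 to 111.

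S100a6 (ENSRNOG00000011647), also called calcyclin, started from 17.0 and 16.3 TPM. In IC it was 139, 254 and 130 TPM, in IS 386, 414 and 423 TPM, and in IS-HA 145, 429 and 145 TPM. The IS rats were close together (408 ± 19.6 TPM, SD, n = 3), whereas in IS-HA replicates 1 and 3 were at the level of the lower IC rats and replicate 2 was above all IS rats. Its log2 fold change against Normal was 3.31 ± 0.61 in IC, 4.63 ± 0.65 in IS and 3.93 ± 0.63 in IS-HA (edgeR adjusted p = 0.0041, 3.7e-04 and 0.0014). Without Normal replicate 3 the IC call was lost (3.21 ± 0.86, adjusted p = 0.064).

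S100a11 (ENSRNOG00000010105), a partner of Anxa1, was the lowest S100 member in Normal, at 9.64 and 4.67 TPM from 38 and 18 counts. The IC rats had 240, 481 and 451 TPM, the IS rats 707, 706 and 1565 TPM, and the IS-HA rats 272, 637 and 400 TPM. It showed the largest difference of the 8 members against Normal, with log2 fold changes of 5.70 ± 0.74 in IC, 7.14 ± 0.78 in IS and 5.96 ± 0.75 in IS-HA (edgeR adjusted p = 5.7e-04, 9.5e-05 and 3.4e-04). In IS this was 141-fold, with a wide 95% interval of 42.5 to 466. IS replicate 4 alone carried 2877 counts of it. The gene S100a11l1, a copy by its name, had 7 counts over all rats, and how reads shared by such copies were counted is not given in the sources used here.

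**Figure D2:**
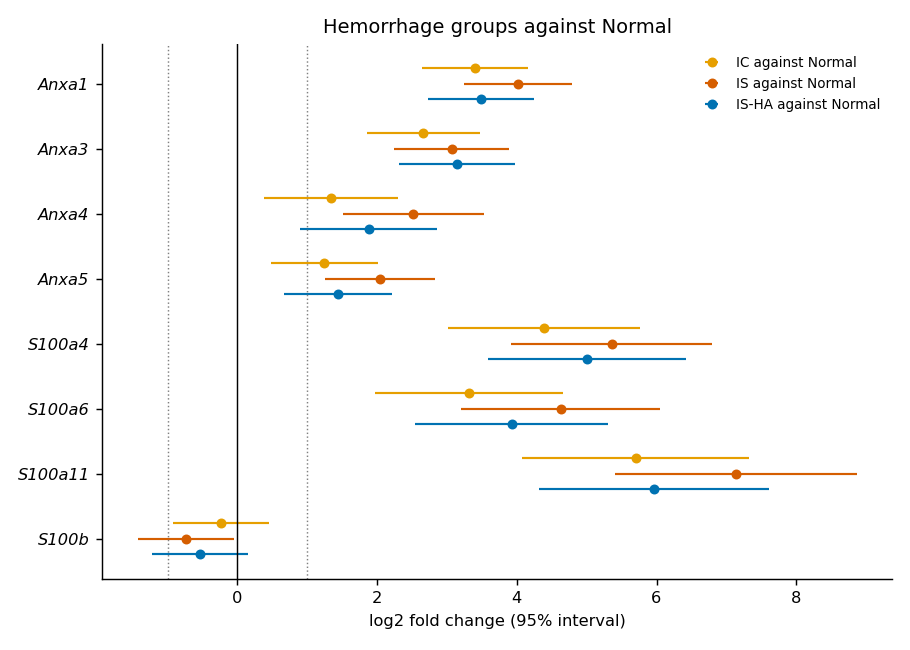
Log2 fold change of each member in IC, IS and IS-HA against Normal from the edgeR fit (points; bars are 95% intervals; dotted lines mark the fold cutoff of 1 on the log2 scale). S100a11 is highest in each group, at 5.70, 7.14 and 5.96, and S100b is the one member below 0, from -0.23 in IC to -0.74 in IS.

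S100b (ENSRNOG00000001295) was by far the most abundant member in Normal and the one member that did not rise. Its TPM was 1822 and 1581 in Normal, 1683, 1371 and 1478 in IC, 1102, 1424 and 548 in IS, and 1268, 1103 and 1177 in IS-HA. Both Normal rats were above every IS and every IS-HA rat, on TPM and on CPM, and IC overlapped Normal. That position was held by 35.2% and 23.5% of all genes on TPM and by 36.9% and 29.2% on CPM. The log2 fold change against Normal was -0.23 (95% interval -0.92 to 0.46) in IC, -0.74 (-1.42 to -0.054) in IS and -0.54 (-1.22 to 0.14) in IS-HA, with edgeR adjusted p-values of 0.63, 0.069 and 0.20, so no call was made. In IS the value passed with the DESeq2 Wald test without reaching the fold cutoff (-0.75, adjusted p = 0.045) and passed both limits without IS replicate 3 (-1.06, adjusted p = 0.017), while without IS replicate 4 it was -0.46 (adjusted p = 0.15).

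S100b was 97.7% and 97.8% of the summed TPM of the 4 S100 members in the Normal rats, and on average 62.8% in IC (52.5% to 73.0%), 33.8% in IS (17.0% to 44.0%) and 52.7% in IS-HA (37.2% to 60.9%). The sum of S100a4, S100a6 and S100a11 was 35.7 to 43.3 TPM in Normal, 622 to 1241 TPM in IC, 1632 to 2673 TPM in IS and 790 to 1864 TPM in IS-HA. IS replicate 4 had both the lowest S100b level and the highest sum of the other 3.

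**Figure D3:**
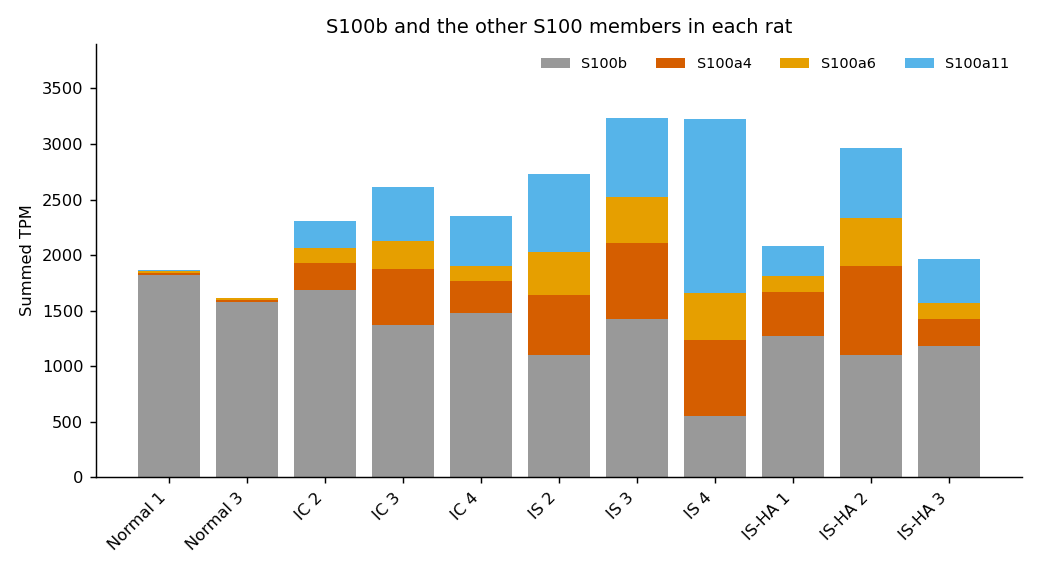
Summed TPM of the 4 S100 members in each rat, stacked by gene. S100b (grey) fills nearly the whole bar in both Normal rats, and in IS replicate 4 it is 17.0% of 3221 TPM, the rest being mostly S100a11.

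S100b was set beside 10 other astrocyte markers, since astrocytes are its main source in brain. Their summed TPM was 2906 to 2974 in Normal, 6113 to 8376 in IC, 3437 to 6060 in IS and 4826 to 6469 in IS-HA, and Gfap, the filament protein of reactive astrocytes, rose by 3.15 ± 0.31 on the log2 scale in IS (edgeR adjusted p = 6.0e-05), from a mean of 401 to one of 3545 TPM. Slc1a2, the astrocyte glutamate transporter, fell by 3.74 ± 0.56 in the same comparison (edgeR adjusted p = 5.0e-04). These were the only called genes among the 10 in any of the 3 comparisons with Normal. The mean ratio of S100b to the summed markers was 0.578 in Normal and 0.225, 0.196 and 0.213 in IC, IS and IS-HA, and no such difference was seen once Gfap was left out. Against the other 9 markers the mean ratio was 0.670 (0.637 to 0.702) in Normal, 0.619 (0.589 to 0.641) in IC, 0.686 (0.551 to 0.824) in IS and 0.579 (0.498 to 0.723) in IS-HA, with overlap between IC, IS or IS-HA and Normal. The summed TPM of these 9 was 2481 to 2596 in Normal and 804 to 2001 in IS, lowest in IS replicate 4, the rat with the lowest S100b. Aldoc was the largest part of this sum, with a mean of 1421 of 2539 TPM in Normal and 826 of 1511 TPM in IS. The single markers differed. Mean TPM in IS relative to Normal was 0.60 for S100b and 0.58 for Aldoc, and ran from 0.074 (Slc1a2) to 1.34 (Sox9) over the 9. The summed TPM of 8 oligodendrocyte markers, from cells that also make S100b, was lower in every hemorrhage rat than in Normal. It was 17955 to 18499 in Normal and 6380 to 10743 in IS, and 4 of the 8 markers fell in IS against Normal. Their part in the S100b level was not tested.

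Summed markers of blood-borne and resident phagocytes were higher in every hemorrhage rat than in both Normal rats, as the 7 risen members were. The summed TPM of 12 microglia and macrophage markers was 350 to 486 in Normal, 2616 to 3449 in IC, 4633 to 5669 in IS and 3448 to 5447 in IS-HA. Of these 12, 10 rose in IS against Normal. In IS against IC 9 of the 12 were higher and none passed the test. P2ry12 (-0.67 ± 0.25), Tmem119 (-0.74 ± 0.25) and Itgam (-0.043 ± 0.39) were lower there. The 10 neutrophil markers summed to 5.33 to 5.35 TPM in Normal, 92.4 to 281 TPM in IC, 520 to 729 TPM in IS and 174 to 877 TPM in IS-HA, all 7 that could be tested rose, and Mpo, a defining marker of early granulocytes, was at 0 in every Normal, IC and IS rat. This list holds S100a8 and S100a9, which are S100 genes themselves. Among 7 T and NK cell markers, 3 of 5 tested rose in IS against Normal, led by Cd8a, while Cd3e, which defines T cells, stayed under 1 TPM on average in each group. Of 8 fibroblast and mural cell markers 5 rose and 1 fell, of 8 endothelial markers 1 rose, and of 3 erythroid markers none did. The part of these cells in the annexin and S100 levels was not tested.

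The comparison of IS with IC addressed the severity of hemorrhage. Means of 7 members were higher in IS than in IC and S100b was lower, but no member passed the test (edgeR adjusted p = 0.16 to 0.40), and no gene at all did (0% called in either direction). The log2 differences, IS minus IC, were 0.62 ± 0.26 for Anxa1, 0.41 ± 0.29 for Anxa3, 1.18 ± 0.37 for Anxa4, 0.80 ± 0.30 for Anxa5, 0.97 ± 0.45 for S100a4, 1.31 ± 0.46 for S100a6, 1.44 ± 0.49 for S100a11 and -0.51 ± 0.28 for S100b. Their median was 0.88, against -0.0010 over all genes. At an unadjusted p below 0.05, 5 of 8 members were higher, where 10.5% of all genes were. On CPM, all 3 IS rats lay above all 3 IC rats for 6 of 8 members (every risen member but Anxa1), a pattern that 19.2% of genes showed, and on the TPM scale for 5 of 8 against 15.4%, Anxa3 no longer being apart.

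The spread that this test used included IS-HA replicate 2, because all groups shared one estimate. With that rat left out, the differences between IS and IC hardly moved, but 3 members passed and were higher in IS: Anxa4 (1.18 ± 0.31, edgeR adjusted p = 0.037), S100a6 (1.31 ± 0.21, adjusted p = 0.021) and S100a11 (1.44 ± 0.40, adjusted p = 0.044), where 2.19% of all genes were called higher. S100a4 had adjusted p = 0.043 in the same fit with a difference of 0.97, just under the fold cutoff. A fit of the IS and IC rats alone, which also leaves out IS-HA replicate 2, called no member and no gene. The DESeq2 Wald test on all rats called Anxa4 alone (adjusted p = 0.043) and 1.74% of all genes as higher. Leaving out IS replicate 4, which had the highest value of all rats for 4 members, lowered the S100a11 difference to 0.87 (edgeR adjusted p = 0.50) and the S100b difference to -0.23.

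The comparison of IS-HA with IS addressed the removal of the hematoma. No member passed (edgeR adjusted p = 0.55 to 0.95), and over all genes 0% were called lower and 0.00635% higher. The log2 differences, IS-HA minus IS, were -0.53 ± 0.26 for Anxa1, 0.077 ± 0.29 for Anxa3, -0.63 ± 0.37 for Anxa4, -0.60 ± 0.30 for Anxa5, -0.36 ± 0.44 for S100a4, -0.70 ± 0.46 for S100a6, -1.18 ± 0.49 for S100a11 and 0.20 ± 0.28 for S100b. S100a11 was the 1 member lower at an unadjusted p below 0.05 (3.36% of all genes), with a 95% interval of -2.25 to -0.10. Without IS replicate 4 its difference was -0.61 (edgeR adjusted p = 0.999). Non-overlap depended on the scale: Anxa1 alone was lower in every IS-HA rat on CPM (5.42% of genes), and Anxa5 and S100a11 on TPM (6.37%).

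IS-HA replicate 2 decided much of this picture. It was the highest IS-HA rat for 6 of 8 members (Anxa3, Anxa4, Anxa5, S100a4, S100a6 and S100a11) and the highest of all 11 rats for Anxa3, S100a4 and S100a6. Without it, the 2 remaining IS-HA rats were below all 3 IS rats on CPM for 7 of 8 members, where 24.9% of all genes were, and the log2 differences became -0.61 for Anxa1, -0.40 for Anxa3, -1.05 for Anxa4, -0.93 for Anxa5, -1.15 for S100a4, -1.65 for S100a6 and -1.74 for S100a11. S100a6 then passed as lower (±0.25, edgeR adjusted p = 0.034; 0.541% of genes were called lower), and the other 6 had adjusted p-values of 0.058 to 0.19. The same rat had a summed 5447 TPM of the microglia and macrophage markers, against 3448 and 3737 TPM in the other IS-HA rats. Its neutrophil markers summed to 877 TPM, against 174 and 227 TPM, and its library was the smallest. Most of the 877 TPM came from 2 S100 genes on that list, S100a8 (542 TPM) and S100a9 (277 TPM). Csf3r, another marker on it, was at 26.2 to 31.1 TPM across the IS-HA rats. Single markers differed: in rising order the IS-HA rats had 502, 564 and 1218 TPM of Tyrobp, but 15.3, 58.2 and 60.1 TPM of Itgam and 76.9, 141 and 154 TPM of Cx3cr1. The part of these markers and of library size in the annexin and S100 levels of IS-HA replicate 2 was not tested.

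**Figure D4:**
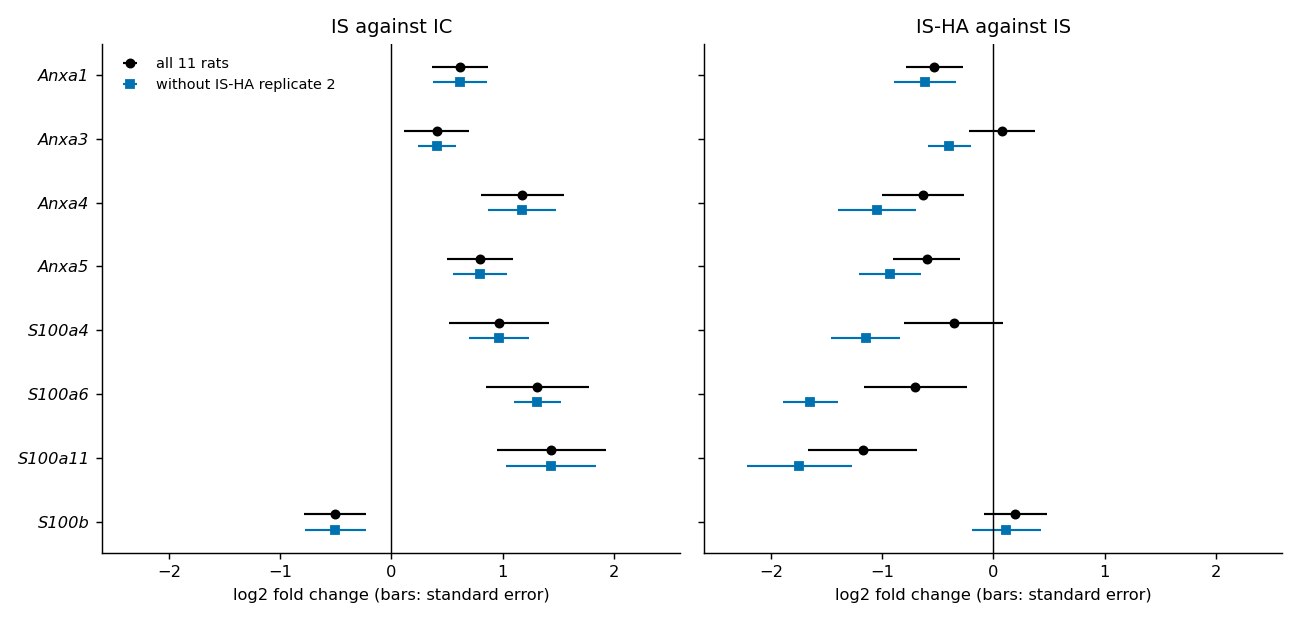
Log2 fold change of each member for IS against IC and IS-HA against IS, from all 11 rats (circles) and without IS-HA replicate 2 (squares; bars are standard errors). Leaving out that rat narrows the errors in IS against IC, and in IS-HA against IS moves S100a6 from -0.70 to -1.65 and Anxa3 from 0.077 to -0.40.

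Between IS-HA and IC no member passed the test (edgeR adjusted p = 0.84 to 0.96; 0% of all genes were called). The log2 differences, IS-HA minus IC, lay between -0.31 for S100b and 0.61 for S100a4 and S100a6, with 95% intervals for S100a6 of -0.40 to 1.63 and for Anxa1 of -0.48 to 0.65, and the intervals of 5 members reached past 1, a 2-fold difference. Without IS-HA replicate 2 the values of S100a4, S100a6, S100a11 and Anxa5 turned to -0.18, -0.34, -0.31 and -0.13.

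Ordered by mean TPM, 6 members ran IS, IS-HA, IC, Normal from high to low. For Anxa3 the first place was that of IS-HA (171 ± 54.3 TPM, SD, n = 3) over IS (166 ± 29.3 TPM), and these overlapped. S100b ran the other way, from Normal (1702 ± 170 TPM, n = 2) over IC (1511 ± 158 TPM) and IS-HA (1183 ± 82.4 TPM) to IS (1025 ± 443 TPM). In all 7 risen members the lowest step, from IC to Normal, was free of overlap and the step above it was not. On TPM, 34.6% of all genes were higher in every IC rat than in Normal. The top step between IS and IS-HA overlapped for Anxa1, Anxa4, S100a4 and S100a6 and was clear for Anxa5 (149 ± 28.1 against 98.5 ± 19.1 TPM) and S100a11 (993 ± 496 against 436 ± 185 TPM), where 6.37% of all genes were lower in every IS-HA rat.

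Within the 9 hemorrhage rats, log2 CPM of most members moved together. Pearson's r was 0.97 for Anxa4 with Anxa5, 0.97 for Anxa5 with S100a11 and 0.95 for the neighbouring genes S100a4 and S100a6, with Spearman's rho of 0.88, 0.97 and 0.97. Without the 2 rats farthest from the median the first 2 of these r were 0.90 and 0.93. For S100a4 with S100a6 it was 0.94 without the 2 rats farthest in S100a4 and 0.91 without the 2 farthest in S100a6. Among the 7 members other than S100b the lowest r was that of Anxa1 with Anxa3 (0.33), which was -0.038 without the 2 rats farthest in Anxa1 and 0.65 without the 2 farthest in Anxa3. S100b had r = 0.069 with Anxa3 and was negatively related to Anxa4 (r = -0.69), a value that came to 0.078 without the 2 rats farthest from the median of Anxa4. These are descriptions over 9 rats of 3 groups that differ in mean, so group differences enter each value.

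The genes whose log2 CPM was most like each member over the same 9 rats, among 10888 well expressed genes, were Kank2, Slc25a24 and Mmp19 for Anxa1 (r = 0.937, 0.933 and 0.933) and Ccdc85b, LOC120098269 and Trappc2l for Anxa3 (r = 0.986, 0.985 and 0.983). Anxa4 was followed by Cd8a, Zfp787 and Arhgap22 (r = 0.996, 0.994 and 0.994), and Anxa5 by Gsdmd, Igsf7 l1 and Tmco1 (r = 0.995, 0.992 and 0.990). For S100a4 they were Vamp3, H2az1 and Gpank1 (r = 0.976, 0.976 and 0.972), and for S100a6 Id1, Ier5l and Gucd1 (r = 0.980, 0.972 and 0.971). S100a11 was most like Tgfbi, Cmtm3 and Cxcr4 (r = 0.991 for each), while S100b was most like Fndc5, Trnp1 and Ntsr2 (r = 0.983, 0.969 and 0.968). The best of so many candidates is high by selection, and for Anxa4, Anxa5, S100a11 and S100b the rats farthest from the median were IS replicate 4 and IC replicate 2.

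Among the annexins that were not members, 5 of 8 could be tested and 3 rose in IS against Normal. Anxa2, which carries S100a10 to membranes and binds plasminogen, had the largest difference of any annexin (5.22 ± 0.55, edgeR adjusted p = 7.6e-05), from 1.34 ± 0.33 TPM in Normal to 49.6 ± 12.2 TPM in IS. Anxa6 (1.46 ± 0.28) and Anxa11 (1.42 ± 0.25) rose less. Anxa7 (0.80 ± 0.17) stayed under the fold cutoff and Anxa8 (1.52 ± 0.77) did not pass. In IC 1 of these 5 rose (Anxa2, 3.67 ± 0.51) and in IS-HA 2 of 5 (Anxa2, 4.36 ± 0.52, and Anxa6, 1.10 ± 0.27).

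Of 13 other S100 genes, 12 were in the file, 7 could be tested and 5 rose in IS against Normal. The neutrophil genes S100a8 and S100a9, whose products pair as calprotectin, showed the largest differences (8.03 ± 1.44 and 7.74 ± 1.03, edgeR adjusted p = 0.0014 and 2.7e-04), from means of 0.923 and 1.17 TPM in Normal to 256 ± 78.8 and 255 ± 33.1 TPM in IS. S100a10, the partner of Anxa2 and the gene beside S100a11, rose by 5.49 ± 0.73, from 13.6 ± 3.23 to 597 ± 111 TPM. S100a3, the gene before S100a4 on the chromosome, rose by 2.47 ± 0.56 and S100a16 by 1.33 ± 0.32, while S100a14 (0.92 ± 0.44) and S100a1 (0.26 ± 0.34) did not pass. S100a5, between S100a4 and S100a6, had 8 counts over all rats and was not tested. No other annexin or S100 gene was called in IS against IC or in IS-HA against IS.

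**Figure D5:**
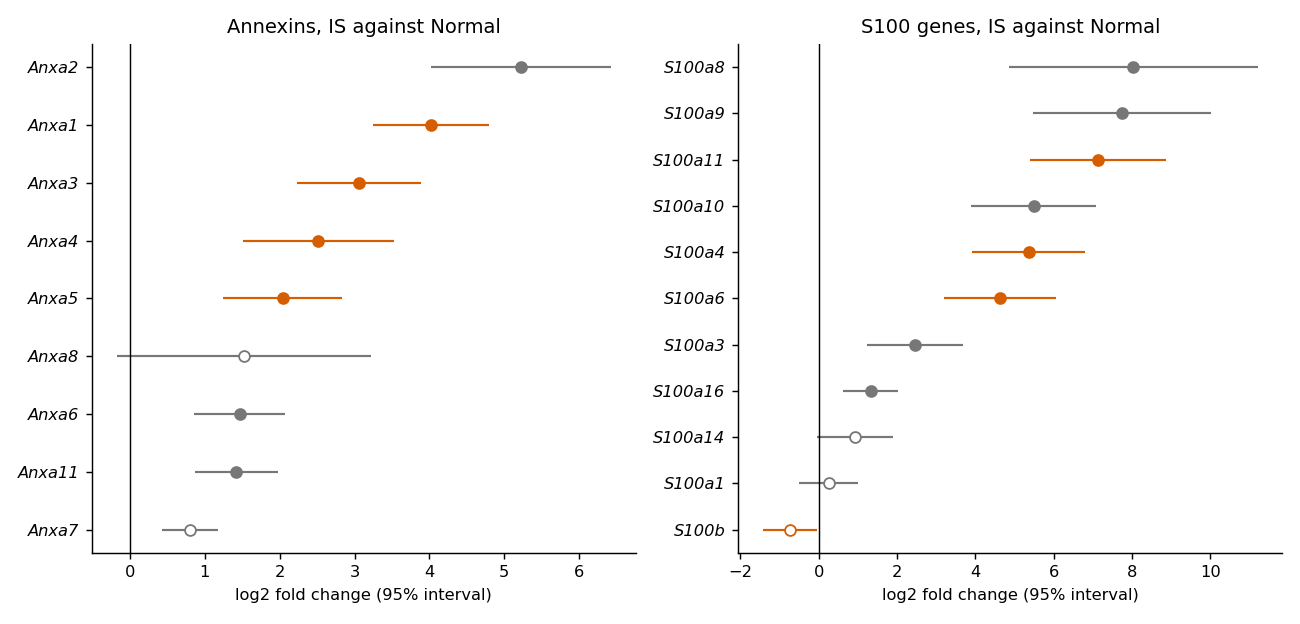
Log2 fold change of all tested annexins and S100 genes in IS against Normal (points; bars are 95% intervals; orange marks the 8 members, filled points passed the test). Anxa2 at 5.22 and S100a8 at 8.03 lead their families, and S100b at -0.74 is the one gene below 0.

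Of 14 receptors and partners of these proteins, 12 were in the file and 9 could be tested. Tlr4, a receptor for S100a8 and S100a9, rose in IS against Normal (2.40 ± 0.42, edgeR adjusted p = 0.0012), whereas Ager, the receptor for advanced glycation end products that binds S100b and other S100 proteins, had 0.75 ± 0.39 and did not pass (adjusted p = 0.13). Dysf, the membrane repair protein dysferlin (2.11 ± 0.49), Pla2g4a, the phospholipase that annexins restrain (1.97 ± 0.24), Ahnak (1.82 ± 0.38), Capn1 (1.67 ± 0.41) and Myh9, the myosin heavy chain that S100a4 binds (1.53 ± 0.23), rose as well. Cacybp (0.17 ± 0.15) and Sugt1 (0.30 ± 0.18), which bind S100a6, did not pass. In all, 6 of 9 tested rose in IS, 4 of 9 in IC and 5 of 9 in IS-HA, and none was called in IS against IC or IS-HA against IS. The formyl peptide receptors Fpr1, Fpr2 and Fpr3 had 1, 6 and 4 counts over all rats and were not tested.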

How the data were processed

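Poly(A) RNA from the striatum of 11 rats was made into TruSeq Stranded libraries and sequenced by the authors. The deposited tables hold raw read counts per gene and TPM values for all rats. Per the submitters' processing notes, fastp 0.20.0, FastQC 0.11.9, HISAT2 2.1.0, SAMtools 1.9 and featureCounts were among the tools, with the mRatBN7.2 build. The strand setting, the handling of multi-mapping reads and the annotation are not given in the sources used here. Here, counts were fitted with edgeR 4.0.16 in R 4.3.3 (TMM normalization, filterByExpr, quasi-likelihood F test, all 4 groups in 1 model). The p-values were adjusted by the Benjamini-Hochberg method across the 15742 genes kept, and a gene was called at adjusted p below 0.05 and an absolute log2 fold change of at least 1. Standard errors are approximate. The deposited TPM values were used for levels and shares. DESeq2 1.42.0 and limma 3.58.1 (log2 of TPM plus 1) were alternatives, and figures were drawn with matplotlib 3.10.9. Totals of 6701301 to 18817645 counts per rat set the precision. The edgeR script was tested on simulated counts.

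The 8 members and the lists of other annexins, other S100 genes, partners and cell type markers were chosen with earlier results of these data known. All members were named, and from each list the counts called and up to 5 called genes with the largest difference in IS against Normal, plus Anxa2, S100a8, S100a9 and S100a10. For each member the 3 most correlated genes with a mean log2 CPM of at least 3 were named. Other genes (Anxa7, Anxa8, S100a1, S100a5, S100a14, S100a11l1, Myh9, Ager, Cacybp, Sugt1, the Fpr genes and single markers), the counts of members apart on TPM or without a rat, and the S100b ratio without Gfap, were chosen after their values were seen. Promoter sequences are RefSeq's for GRCr8, matched by Entrez ID, a build other than that of the counts, and were searched for letters only.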

Additional observations from a re-analysis of the deposited data

How the results depend on the processing

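Each difference was recomputed under 20 alternatives, and 922 of 960 member values kept their direction and their side of adjusted p = 0.05, 10 no longer fell below it, 16 newly did (14 of them also past the fold cutoff) and 12 turned sign. In IS against IC the DESeq2 Wald test called 1 member, and leaving out 1 rat gave 0 to 3. In IS-HA against IS leaving out 1 rat gave 0 to 1, and in both comparisons the highest count came without IS-HA replicate 2. Against Normal these counts ran from 4 to 7 in IC, 7 to 8 in IS and 5 to 7 in IS-HA. Calls over all genes, in either direction, ran from 821 to 2995, 3633 to 6014 and 1529 to 4149 in the same fits. Differences that turned sign did so with 1 rat left out. Over these fits IS-HA against IS ran from -0.40 to 0.26 for Anxa3 and from -0.079 to 0.50 for S100b. IS-HA against IC ran from -0.063 to 0.37 for Anxa1, from -0.13 to 0.35 for Anxa5, from -0.18 to 0.96 for S100a4, from -0.34 to 0.94 for S100a6 and from -0.31 to 0.56 for S100a11, and none of these passed the test. Same-numbered rats are different animals. In IS and IC their deviations from the group means correlated at 0.36, -0.34 and 0.085, without a common sign. So few values cannot exclude a batch shared by replicate number. With the replicate block 4 members were called in IC against Normal, Anxa5 (1.08, edgeR adjusted p = 0.26) and S100a6 (2.92, adjusted p = 0.064) no longer passing, and the other member counts were 7, 7, 0, 0 and 0 as before. Scaling by library size alone moved the median of all genes to 0.14, 0.15 and 0.18 against Normal. Over all genes, calls in IS against IC ran from 0 to 613 between tools and settings and from 0 to 964 with 1 rat left out, and in IS-HA against IS from 0 to 62 and from 0 to 481. In IC against Normal they ran from 839 to 3107 between tools and settings, the replicate block being one of these. Precision was limited by 2 Normal rats and by 38 and 18 counts of S100a11 in them.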
